A study of Homo sapiens with 5 samples.

Results

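The sites described here are stretches of autosomal chromatin at which ERα peaks had been listed in both VCaP + E2 and NCI-H660 + E2 cells. The sites were chosen by the positions of the peaks in these 2 lists. A site was taken when a peak of the VCaP + E2 list on chromosomes 1 to 12 or 14 to 22 overlapped a peak of the NCI-H660 + E2 list by at least 1 bp. The rule found 690 sites among the 1377 VCaP + E2 peaks on these 21 chromosomes, out of 2505 in that list and 6565 in the 4 lists of the series. At the same sites lay 703 of the 1693 NCI-H660 + E2 peaks on these chromosomes.

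The lists came from chromatin immunoprecipitation with an ERα antibody followed by sequencing (ChIP-seq). VCaP is an established prostate cancer line that responds to androgen, NCI-H660 was derived from a neuroendocrine tumour of the prostate, and VCaP ERα is VCaP made to overexpress the receptor. For VCaP + E2 and NCI-H660 + E2 the labels give 48 h without hormone, then 10 nM 17β-oestradiol (E2) for 14 h, at passages 3 to 4 and 4 to 5. The VCaP list came from cells at passages 3 to 4 with no E2 named, and the VCaP ERα + E2 list from passages 10 to 12 with no dose or time named. Outside the experiment the NCI-H660 medium itself contained 10 nM E2, whereas the VCaP medium had serum and no added E2. All 4 libraries were made with 1 antibody and cut to fragments of 200 to 300 bp, adaptors included. Input DNA from VCaP was sequenced too and is not analysed here.

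ERα is a nuclear receptor that binds oestrogen, pairs with a further receptor molecule and attaches to DNA, either at oestrogen response elements or through other factors such as FOXA1 and AP-1. In breast cancer cells most of its sites lie far from gene starts. In prostate tissue the receptor is known mainly from stroma and from a subset of tumours.

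Each group had 1 library, so that the values below carry no replicate error and conditions were not tested against each other. Shares carry exact (Clopper-Pearson) 95% binomial intervals, which cover counting error only and are too narrow where neighbouring sites are not independent. The lists held positions alone, with no height, score or read number, and the depth of the libraries is unknown. Positions are on hg18, counted from 1. The VCaP + E2 and NCI-H660 + E2 libraries were run on a Genome Analyzer II and the others on a HiSeq, so that presence in one pair of lists and absence from the other cannot be told apart from the sequencer.

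The shared sites were 50.1% of the VCaP + E2 peaks in scope and took in 41.5% of the NCI-H660 + E2 peaks. Both percentages follow from the rule and are given as a description. A single NCI-H660 + E2 peak lay at 676 sites and 2 lay at the remaining 14, while 1 NCI-H660 + E2 peak spanned 2 sites. This made 704 pairs of peaks, of which 675 joined peaks with no further partner. The sites with 2 partners were wide, from 494 to 1235 bp in VCaP + E2 with a median of 836.5 bp.

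Few sites lay close to the limit of the rule. Taking for each site the NCI-H660 + E2 peak with which it overlapped most, the smallest overlap was 33 bp, on chromosome 22, between a VCaP + E2 peak from 25374741 to 25374888 and an NCI-H660 + E2 peak from 25374856 to 25375021. The next smallest were 37, 37, 75 and 78 bp. Just outside the rule, the nearest pair was 4 bp apart on chromosome 2, with the VCaP + E2 peak from 114076809 to 114076937 and the NCI-H660 + E2 peak from 114076942 to 114077478. The following gaps were 69, 103, 180 and 188 bp. Of the 687 VCaP + E2 peaks that were not shared, 34 lay within 1000 bp of an NCI-H660 + E2 peak, and the median gap was 436 kb.

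The shared sites were the wider ones of both lists. In VCaP + E2 their peaks ranged from 99 to 2440 bp with a median of 273.5 bp, against 160 bp for the peaks of this list that were not shared. In NCI-H660 + E2 the median was 181 bp at the shared sites and 147.5 bp elsewhere. A width of at least 500 bp was reached by 86 shared sites in VCaP + E2 (12.5%) and by 8 unshared peaks (1.16%). In NCI-H660 + E2 it was reached by 48 shared peaks (6.83%) and by 6 unshared ones (0.606%). A wider peak has more room to overlap, so width is tied to the rule and was not tested. When the VCaP + E2 peaks were ordered by width and split into 5 equal groups, 12.0% of the narrowest group were shared and 89.5% of the widest. The corresponding shares in NCI-H660 + E2 were 13.9% and 72.2%.

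**Figure D1:**
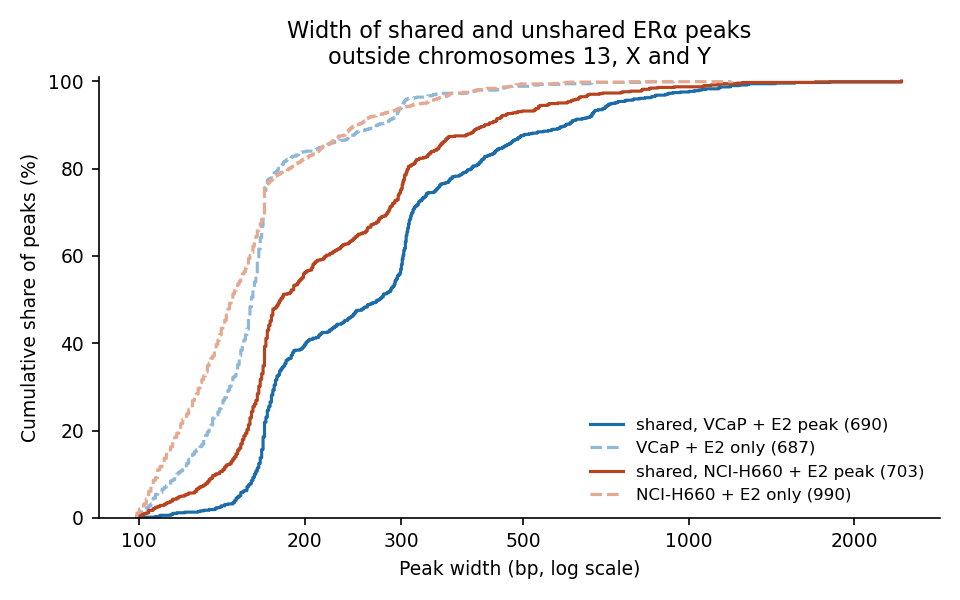
Widths of the peaks in bp on a log axis, for shared and unshared peaks of VCaP + E2 and of NCI-H660 + E2 outside chromosomes 13, X and Y, drawn as the cumulative percent of peaks. The curve of the shared VCaP + E2 peaks (median 273.5 bp) lies right of that of the unshared ones (median 160 bp). Between 160 and 180 bp these rise by 25.8 and 31.7%, and the curve of the shared NCI-H660 + E2 peaks by 26.9%. That of the unshared NCI-H660 + E2 peaks rises by 18.7% there, with 52.0% of its peaks under 150 bp.

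The widths gathered in steps. From 160 to 180 bp lay 178 of the 690 shared VCaP + E2 peaks (25.8%) and 189 of the 703 shared NCI-H660 + E2 peaks (26.9%). From 290 to 320 bp lay a further 129 (18.7%) and 71 (10.1%). Between these steps the list was thin, with 57 shared VCaP + E2 peaks of at least 200 and under 250 bp. Among the unshared VCaP + E2 peaks 31.7% were at the lower step and 4.95% at the upper one. Among the unshared NCI-H660 + E2 peaks the shares were 18.7 and 1.62%, with 52.0% under 150 bp. The limits of the steps were chosen after the widths were seen. A pair did not always sit on the same step: of the 675 pairs with no further partner, both peaks were at least 150 and under 200 bp wide in 172 (25.5%) and both were at least 250 bp in 225 (33.3%). In 70 pairs (10.4%) a VCaP + E2 peak of at least 250 bp met an NCI-H660 + E2 peak of 150 to under 200 bp, while the reverse was seen in 8 (1.19%).

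The edges of the paired peaks lay close together. The rule itself limits this, since the midpoints of overlapping peaks lie less than the mean of their widths apart. The values are therefore a description, and closeness beyond that limit was not tested. The midpoints differed by a median of 12.25 bp, with quartiles of 3.5 and 41.5 bp and a maximum of 630.5 bp, and in 650 of 704 pairs (92.3%) they were within 100 bp. The starts differed by a median of 14 bp in either direction and the ends by 12 bp. In the median pair 83.9% of the combined span was common to both peaks. Both edges fell within 10 bp of each other in 180 pairs (25.6%), and in 2 pairs both edges were identical. The difference in midpoints grew with width, from a median of 5.5 bp in the narrowest of 4 near-equal groups of the 675 pairs with no further partner to 32.75 bp in the widest. Under the rule wider peaks have more room to differ, so that this rise is tied to it and was not tested.

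Where the edges differed, the NCI-H660 + E2 peak usually lay inside the VCaP + E2 peak. It did so in 430 pairs (61.1%), and the VCaP + E2 peak lay inside its partner in 45 (6.39%). In 227 pairs the peaks were staggered. The NCI-H660 + E2 peak was the narrower one in 572 of the 704 pairs and of the same width in 14. Its start was a median of 9 bp downstream and its end a median of 7 bp upstream of those in VCaP + E2. Width in one list went with width in the other, with a Spearman correlation of 0.713 across the 704 pairs, which are sites within a single pair of libraries and not replicates. How far the threshold or the depth of each library set these edges was not tested.

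**Figure D2:**
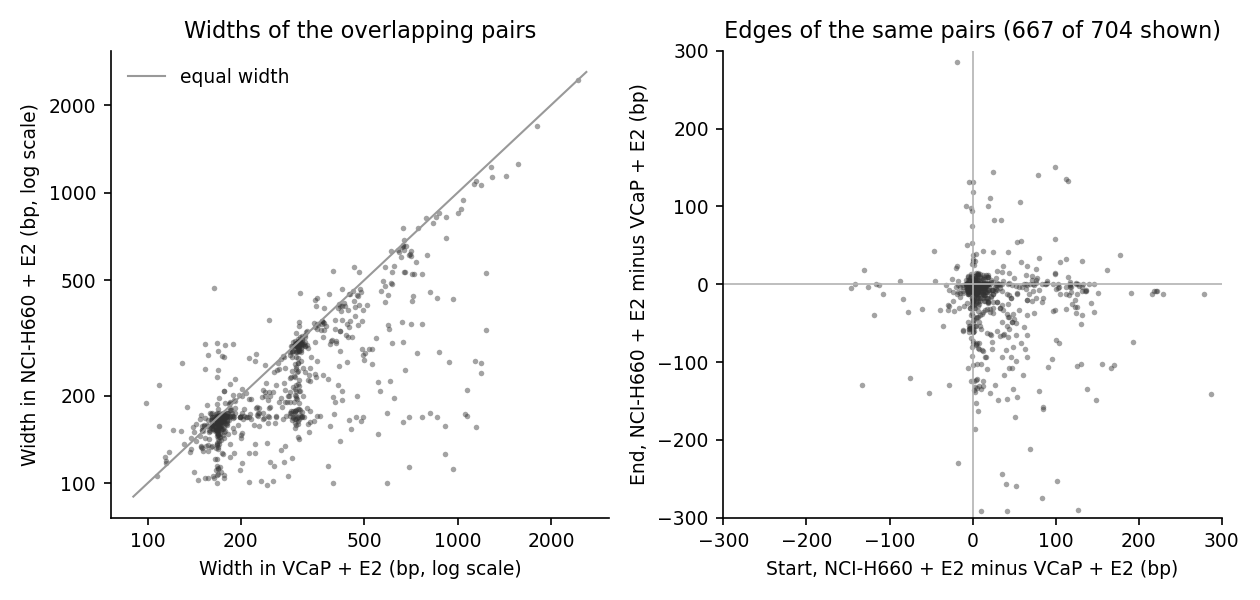
Left, width of the NCI-H660 + E2 peak against width of the VCaP + E2 peak in bp on log axes, with 1 point per overlapping pair and a line of equal width, below which lie the 572 pairs whose NCI-H660 + E2 peak was narrower. Right, difference in end against difference in start (NCI-H660 + E2 minus VCaP + E2, bp) for the 667 of 704 pairs in which both were within 300 bp, most of them in the lower right part, where the NCI-H660 + E2 peak lies inside its partner.

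Of the 10 widest shared sites, 8 had an NCI-H660 + E2 peak over 1000 bp wide. The widest was a 2440 bp peak on chromosome 6 from 58884763 to 58887202, and its NCI-H660 + E2 peak also measured 2440 bp. The site on chromosome 19 from 55693570 to 55695375 was 1806 bp wide in VCaP + E2, with an NCI-H660 + E2 peak of 1700 bp. That on chromosome 1 from 121185526 to 121187085 was 1560 and 1255 bp wide. Equal in the first of these, the VCaP + E2 peak was the wider one in the other two. On chromosome 19, the site from 34198004 to 34199440 was 1437 and 1141 bp wide, and that from 3260944 to 3262230 was 1287 and 1131 bp wide. The site on chromosome 17 from 60914375 to 60915652 was 1278 and 1225 bp wide, and the one on chromosome 4 from 80492569 to 80493758 was 1190 and 1060 bp wide. In these 7 sites, each with 1 partner, the midpoints differed by at most 149.5 bp. At the other 3 of the 10 widest sites the VCaP + E2 peak met 2 NCI-H660 + E2 peaks. The 1235 bp site on chromosome 9 from 67908267 to 67909501 met peaks of 338 and 528 bp. The 1192 bp site on chromosome 16 from 33864989 to 33866180 met peaks of 260 and 240 bp, and the 1143 bp site on chromosome 19 from 3628792 to 3629934 met peaks of 1097 and 156 bp. At the sites on chromosomes 9 and 16 the NCI-H660 + E2 peaks were thus much the narrower. Of the 10 widest sites 4 were on chromosome 19 and 4 were within 5 Mb of a centromere.

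Shared sites occurred on each of the 21 chromosomes, from 10 on chromosome 8 to 55 on chromosome 16. Per Mb of assembled sequence the number ran from 0.0701 on chromosome 8 to 0.995 on chromosome 21, against 0.267 for the 21 chromosomes together. Chromosome 19, known as the chromosome richest in genes, had 0.896 per Mb, and chromosome 16 had 0.697. The share of the VCaP + E2 peaks that were shared lay between 22.2% on chromosome 8 (95% interval 11.2 to 37.1) and 72.4% on chromosome 15 (59.1 to 83.3).

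Seen from NCI-H660 + E2, the chromosomes differed more widely. All 19 of its peaks on chromosome 18 were shared (interval 82.4 to 100%), as were 47 of 50 on chromosome 2 (94.0%), 25 of 27 on chromosome 11 (92.6%) and 21 of 23 on chromosome 3 (91.3%). On chromosome 21 the figure was 35 of 147 (23.8%), on chromosome 19 it was 52 of 220 (23.6%), and on chromosome 8 it was 10 of 46 (21.7%). These chromosomes were named as the highest and lowest after the shares were seen. Being shared is the rule itself, so that the shares and intervals are a description and no test. On chromosomes 1, 9, 14, 19 and 21 the NCI-H660 + E2 list was long and most of its peaks had no counterpart. The copy number of these chromosomes in either line was not analysed here, and its part in the counts was not tested.

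**Figure D3:**
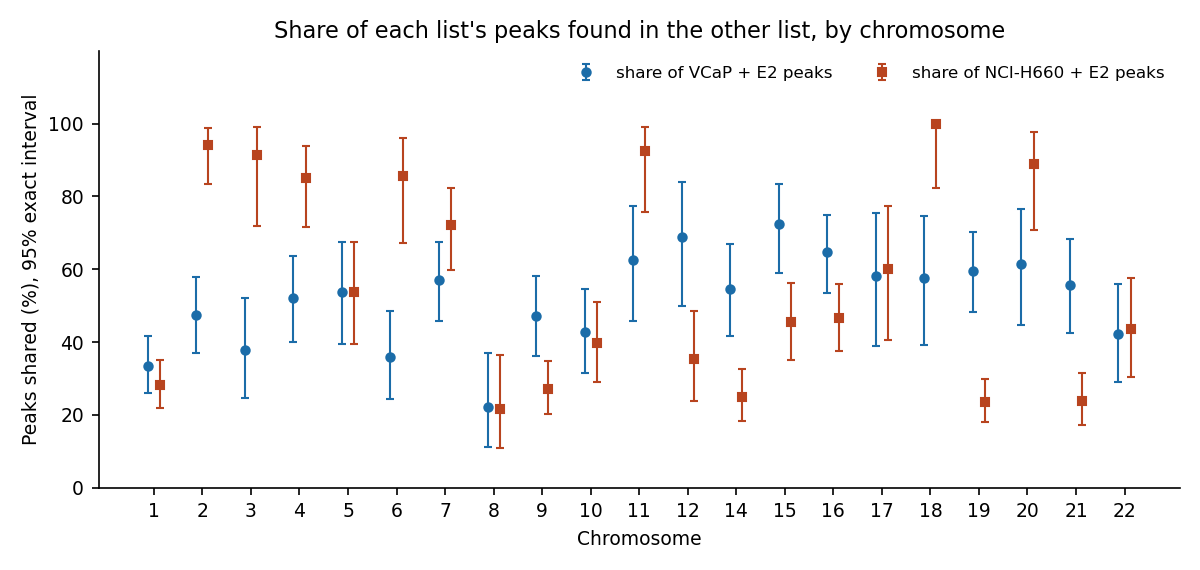
Percent of the VCaP + E2 peaks (circles) and of the NCI-H660 + E2 peaks (squares) on each of the 21 chromosomes that overlapped a peak of the other list, with exact 95% binomial intervals as bars. The circles lie between 22.2% (chromosome 8) and 72.4% (chromosome 15), while the squares run from 21.7% (chromosome 8) to 100% (chromosome 18).

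The ends of the chromosomes held more shared sites than their length alone gives. Of the 690 sites 135 (19.6%, 95% interval 16.7 to 22.7) began or ended within 5 Mb of a chromosome end, a zone that made up 7.23% of the assembled length. Within 1 Mb there were 3.33% of the sites on 1.41% of the length, within 2 Mb 8.41% on 2.86%, and within 10 Mb 30.4% on 14.6%. Unshared peaks lay there too, with 17.9% of the VCaP + E2 and 17.2% of the NCI-H660 + E2 peaks within 5 Mb, so that the excess was seen in shared and unshared peaks of both lists. Of the VCaP + E2 peaks near the ends 52.3% were shared (46.0 to 58.6) and of those away from them 49.6% (46.6 to 52.6), with intervals that overlapped. The outermost shared sites began at base 1 of the sequence. They lay on chromosome 18 from 1 to 302, with an NCI-H660 + E2 peak from 22 to 238, and on chromosome 9 from 1 to 390, with one from 69 to 377.

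Around the centromeres the lists differed. The centromeres themselves consist of repeated satellite DNA in which reads are hard to place, and the zones counted here reach beyond them. The part of read placement in the counts was not tested. Within 5 Mb of a centromere lay 61 shared sites (8.84%, 6.83 to 11.2), on 7.22% of the length, and within 1 Mb 36 sites (5.22%, 3.68 to 7.15), on 1.95% of it. At 5 Mb the interval held the share of the length. Without the 6 clusters of at least 5 sites the share within 5 Mb was 5.67%, below that of the length. Of the 38 sites in these clusters 24 lay within 5 Mb of a centromere, so that removing them was bound to lower the share. Of the unshared VCaP + E2 peaks 12.2% were within 5 Mb and 8.15% within 1 Mb. Of the unshared NCI-H660 + E2 peaks 4.24% were within 5 Mb and 0.707% within 1 Mb. Inside the centromeric bands themselves the VCaP + E2 list had 57 peaks, of which 20 were shared (35.1%). The NCI-H660 + E2 list had 20 peaks there and each was shared (interval 83.2 to 100%). The median shared site was 33.0 Mb from its centromere and 22.2 Mb from the nearer end. Of the 61 sites near a centromere, 12 were on chromosome 19, 8 each on chromosomes 10 and 16, 6 on chromosome 2 and 5 on chromosome 21. Without the sites within 5 Mb of a centromere, 629 sites were left and their median width was 260 bp.

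**Figure D4:**
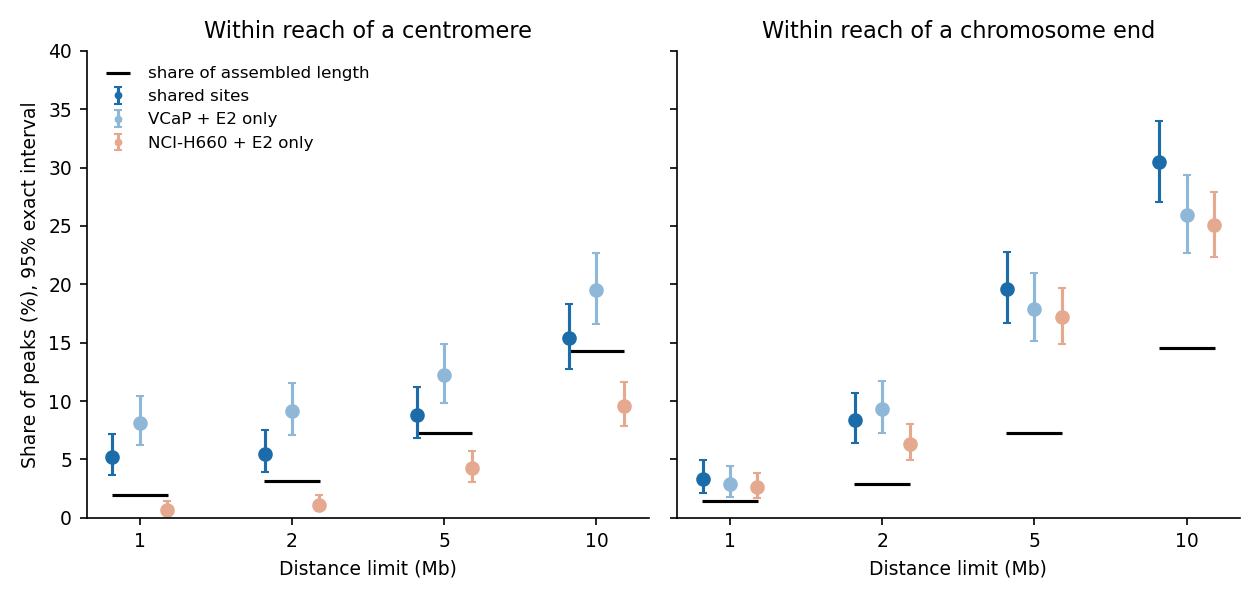
Percent of peaks within a given distance of a centromere (left) and of a chromosome end (right) for shared sites, unshared VCaP + E2 peaks and unshared NCI-H660 + E2 peaks, beside the percent of chromosome length in the same zone. Bars on the points are exact 95% binomial intervals, and for the ends the 3 classes lie together above the length (19.6, 17.9 and 17.2% against 7.23% at 5 Mb).

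Giemsa bands divide the chromosomes into light stretches, which as a rule are rich in genes and GC, and dark ones, which are poor in both. The light bands (gneg and gpos25 in the naming of the map) held 430 shared sites (62.3%, 58.6 to 65.9) on 52.5% of the length, or 0.317 per Mb. The dark bands (gpos75 and gpos100) held 116 (16.8%, 14.1 to 19.8) on 31.1% of the length, or 0.144 per Mb. The density of shared sites was highest in the centromeric and variable bands, with 34 sites (4.93%) on 1.57% of the length, or 0.836 per Mb. In the same bands the unshared VCaP + E2 peaks were denser, with 59 peaks (8.59%) or 1.45 per Mb. The unshared NCI-H660 + E2 peaks were sparse there, with 3 peaks (0.303%) or 0.0738 per Mb. Unshared NCI-H660 + E2 peaks were placed more to the light side, with 80.4% in light and 7.58% in dark bands. The unshared VCaP + E2 peaks, with 66.1 and 13.8%, were nearer to the shared sites. Accordingly the share of NCI-H660 + E2 peaks with a VCaP + E2 partner was 36.7% in the lightest bands (33.7 to 39.8) and 65.8% in the darkest (53.7 to 76.5). In VCaP + E2 the same shares were 48.9% (45.2 to 52.6) and 48.5% (38.3 to 58.7). Between these, 58.2% of the VCaP + E2 peaks in gpos50 bands (50.8 to 65.3) and 60.7% of those in gpos75 bands (51.0 to 69.8) were shared, so that the share did not run one way from light to dark.

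**Figure D5:**
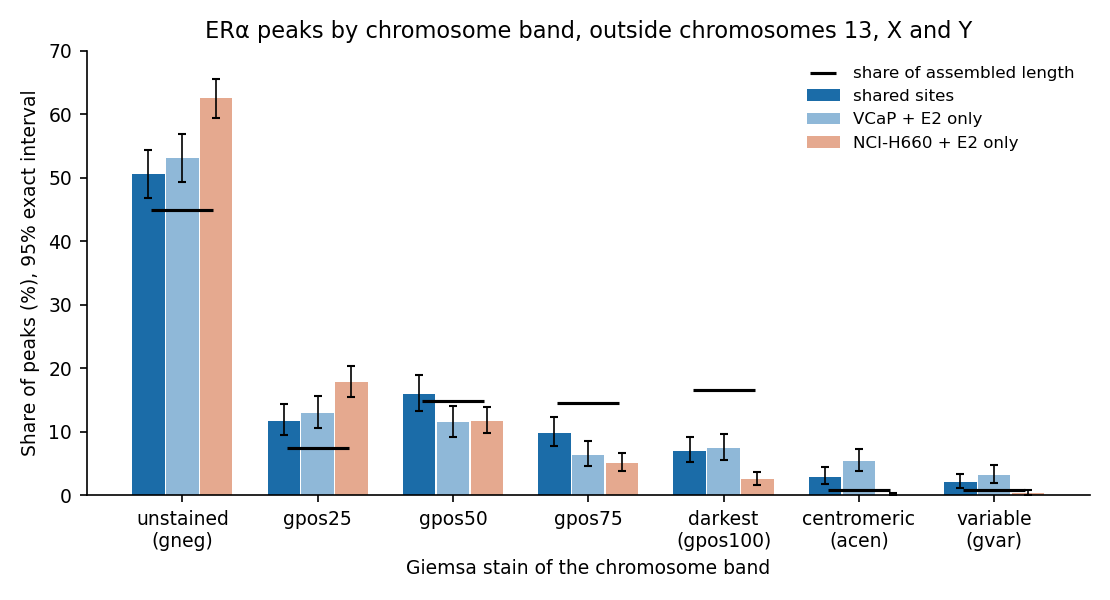
Percent of shared sites, unshared VCaP + E2 peaks and unshared NCI-H660 + E2 peaks (bars, with exact 95% binomial intervals) in bands of each Giemsa stain, beside the percent of assembled length in those bands (black dashes). In the unstained and gpos25 bands the bars stand above the length, and in the gpos75 and gpos100 bands they stay below it, with the unshared NCI-H660 + E2 peaks lowest there.

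Most shared sites stood alone. The nearest other shared site was a median of 713 kb away, with quartiles of 160 and 2096 kb, and 309 sites (44.8%) had none within 1 Mb. The unshared VCaP + E2 peaks were spaced much alike, with a median of 685 kb to the nearest of their kind and 42.4% with none within 1 Mb. For 440 sites (63.8%, 60.1 to 67.4) no further peak of any of the 4 lists lay within 100 kb. The overlapping NCI-H660 + E2 partner was not counted as a further peak. This share was not computed for unshared peaks, so that it is not given as a trait of the shared sites. The most isolated was a 248 bp site on chromosome 3 from 195193264 to 195193511, 36.9 Mb from the next shared site. A run of at least 2 shared sites with gaps of up to 100 kb, called a cluster here, took in 134 sites (19.4%, 16.5 to 22.6) in 50 clusters, of which 37 were pairs. On the same definition 25.9% of the unshared VCaP + E2 peaks and 52.6% of the unshared NCI-H660 + E2 peaks were clustered. NCI-H660 + E2 peaks with no other peak of their list within 1 Mb were shared in 73.8% of cases (68.6 to 78.6). Those with one 10 to 100 kb away were shared in 22.3% (18.7 to 26.3). At 100 kb to 1 Mb the share was 43.1% and within 1 kb it was 43.6%, so that it did not rise steadily with distance. In VCaP + E2 51.4% (46.3 to 56.4) were shared with no other peak of that list within 1 Mb. With one 10 to 100 kb away 45.6% (38.4 to 52.9) were shared there, and the intervals overlapped.

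Of the 6 largest clusters 4 lay within 5 Mb of a centromere. The first, on chromosome 2 in band q21.2 from 132728278 to 132751355, had 9 shared sites in 23.1 kb, among 20 VCaP + E2 and 10 NCI-H660 + E2 peaks. The cluster lay on the long arm, outside the zone of 5 Mb around the centromere. Its sites were 305 to 1138 bp wide in VCaP + E2 (median 452 bp) and its NCI-H660 + E2 peaks 140 to 419 bp (median 176.5 bp). The second, on chromosome 16 in p11.2 from 33857690 to 33871672, had 8 shared sites and was 0.528 Mb from the centromere. Here 11 VCaP + E2 and 9 NCI-H660 + E2 peaks were listed. On chromosome 10, 6 sites lay from 41684619 to 41717041 within the centromeric band q11.1. A further 3 clusters had 5 sites each. That on chromosome 18 ran from base 1 to 99660, and all of its 5 VCaP + E2 and 5 NCI-H660 + E2 peaks belonged to shared sites. That on chromosome 19 ran from 32423711 to 32430486 in q12, next to an assembly gap that began 0.088 kb away, and again all 5 peaks of each list were at shared sites. That on chromosome 21 ran from 10107348 to 10167792 in p11.1, with 11 VCaP + E2 and 5 NCI-H660 + E2 peaks. These 6 clusters held 38 sites (5.51%), 24 of them within 5 Mb of a centromere. Of all sites near a centromere 32 of 61 (52.5%) were in clusters, against 102 of 629 (16.2%) elsewhere.

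Presence in the lists that the rule did not use was rare. In the VCaP list, which had 89 peaks on these chromosomes, 10 of 690 shared sites had a peak (1.45%, 0.697 to 2.65), where 1.16% of all VCaP + E2 peaks in scope did. Of the unshared VCaP + E2 peaks 6 of 687 did (0.873%). In the VCaP ERα + E2 list, with 458 peaks on these chromosomes, the count was 0 of 690 shared sites. The limit of 3 sites of the total is 0.435%, and the exact interval reached 0.533%. The background in the VCaP ERα + E2 list was 0.290% of all VCaP + E2 peaks in scope, from 4 unshared peaks of 687 (0.582%). By overlap, the interval of the shared sites in VCaP held the background, and a count of 0 at this size does not set them apart in VCaP ERα + E2. With midpoints within 1000 bp in place of overlap, 1 shared site had a VCaP ERα + E2 peak (0.145%, 0.00367 to 0.805), against 12 of 687 unshared VCaP + E2 peaks (1.75%, 0.906 to 3.03). These intervals did not overlap, whereas those by the overlap rule did (0 to 0.533 and 0.159 to 1.48%). Neighbouring peaks are not independent, so that no difference is drawn from the intervals. No VCaP ERα + E2 peak was listed on 7 of the chromosomes, which held 232 shared sites, the other 458 being elsewhere. The median distance from these 458 sites to the nearest VCaP ERα + E2 peak was 4.41 Mb, with 28 sites within 100 kb of one and 3 within 10 kb. For the 462 unshared VCaP + E2 peaks on chromosomes that had such a peak the median was 3.55 Mb, with 82 within 100 kb and 40 within 10 kb. The largest cluster of unshared VCaP + E2 peaks held 30 of them, so that no difference is drawn from these counts either. The closest shared site was one of 248 bp on chromosome 19 from 1131766 to 1132013, 681 bp from a 307 bp VCaP ERα + E2 peak.

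The 10 sites that were also in the VCaP list fell into 3 kinds of place. Within 5 Mb of a centromere were the widest site on chromosome 6, where the VCaP peak measured 4135 bp, and the site on chromosome 1 from 121185526, where it measured 1877 bp. On chromosome 10 the sites from 41704557 to 41704733 and from 41705048 to 41705352 fell under a single VCaP peak of 840 bp. The first site of the cluster on chromosome 19, from 32423711 to 32424124, was 414 bp wide in VCaP + E2, with 415 bp in NCI-H660 + E2 and 418 bp in VCaP. These 3 widths were nearly equal. Further out were a site on chromosome 1 from 91625268 to 91625744, with 477, 440 and 525 bp, and one on chromosome 22 from 33122312 to 33122638, with 327, 298 and 142 bp. The remaining 3 lay close together on the long arm of chromosome 6.

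Their stretch, in band q25.1, is where hg18 has ESR1, the gene of ERα itself, which the RefSeq gene order places between CCDC170 and SYNE1. The gene's place on hg18 is general knowledge and was not read from an annotation of that build. Of the VCaP + E2 list 9 peaks lay here, of the VCaP list 7, of NCI-H660 + E2 5 and of VCaP ERα + E2 0. Each of the 5 NCI-H660 + E2 peaks was at a shared site. The site from 152170609 to 152171324 measured 716 bp in VCaP + E2, 627 bp in VCaP and 441 bp in NCI-H660 + E2. That from 152243351 to 152243732 measured 382, 297 and 115 bp in the same order, and that from 152306870 to 152307468 measured 599, 510 and 340 bp. At all 3 sites the VCaP + E2 peak was the widest and the NCI-H660 + E2 peak the narrowest. The sites from 152213102 to 152213418 (317 and 200 bp) and from 152461426 to 152461925 (500 and 266 bp) had no VCaP peak.

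The edges in this stretch kept a fixed distance. At the 3 sites present in VCaP, the VCaP + E2 peak began 42 to 44 bp before the VCaP peak and ended 43 to 45 bp after it. Over the 7 VCaP + E2 peaks of the stretch that had a VCaP counterpart the distances were 42 to 48 bp at the start and 43 to 48 bp at the end. At the other 7 shared sites in VCaP they were far from constant, from -688 to 200 bp at the start and from -1007 to 32 bp at the end. The NCI-H660 + E2 peaks began 105 to 193 bp after and ended 12 to 108 bp before their VCaP + E2 partners. The positions of these peaks relative to the exons, introns and promoters of ESR1 were not analysed here. Reads from ESR1 cDNA or a vector would align to the exons of the gene, and in lists of positions they cannot be told apart from binding of the receptor, so that the peaks of this stretch are given as listed and not as sites of binding.

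A shared site also lay in the stretch of chromosome 11 that holds NEAT1, the long noncoding RNA which the study followed, and MALAT1, its neighbour. The site ran from 65040330 to 65040773 in q13.1, 444 bp in VCaP + E2, with an NCI-H660 + E2 peak of 319 bp (65040370 to 65040688). It was 1 of 25 shared sites on chromosome 11. No VCaP peak overlapped it, and the nearest VCaP ERα + E2 peak, of 106 bp, was 9.75 kb away. Further VCaP ERα + E2 peaks were listed from 64941249 to 64941361 and from 64942832 to 64942935, and neither coincided with a peak of another list. The peak at the shared site was the only NCI-H660 + E2 peak listed in this stretch. The paper reported ERα-binding sites on the NEAT1 promoter from its VCaP ERα and NCI-H660 data. Which listed peaks these are was not analysed, so that the shared site is not given as a NEAT1 promoter site. The place of NEAT1 and MALAT1 on hg18 is general knowledge, as for ESR1. The positions of the peaks relative to these genes were not analysed here, and the stretch was chosen after the values were seen.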

How the data were processed

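The authors deposited 1 peak list per ChIP-seq library, and its deposited values are peak positions in bp and nothing else. The submitters' processing notes name hg18 and CASAVA 1.8, and the study names ChIPSeeqer as peak caller. The aligner, the threshold, any filter on duplicate reads and any subtraction of input are not given in the sources used here. Gained or repetitive DNA can therefore be listed as peaks, and deeper sequencing lengthens and widens a list. No read number was at hand, so that depth and its effect on precision are unknown. Starts are 0-based in the lists and 1-based in the text.

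The sites were chosen by an overlap seen in these data, and they and all lists and limits were set with earlier results of these data known. Groups came from the labels. Chromosome bands, lengths and contigs of hg18 were taken from the R packages circlize 0.4.16, GenomeInfoDb 1.38.1 and IRanges 2.36.0 (R 4.3.3). No peak ran past an hg18 chromosome end, and 2504 of 2505 VCaP + E2 and 1985 of 1986 NCI-H660 + E2 peaks lay within contigs. A centromere is the span of the acen bands. Overlaps, distances and clusters were computed in Python 3.11.15 with numpy 2.4.6 and exact binomial intervals with scipy 1.17.1, after a test on simulated peaks. Plots used matplotlib 3.10.9. Where 0 sites were found, the limit is 3 sites of the total. Named sites are the 10 widest by their VCaP + E2 peak, those also in another list, and the 5 largest clusters, which became 6 because of a tie. The stretches of ESR1, NEAT1 and MALAT1, the edge sites, the most isolated site, the site nearest a VCaP ERα + E2 peak and the sites at base 1 were chosen after their values were seen. Promoters, intergenic share, oestrogen response elements and sequences need hg18 sequence or annotation and were not analysed here. The RefSeq table (GRCh38.p14) served for gene order only. Alternatives were other overlap rules, wider peaks only, merged or fixed-width peaks, other distance limits, and removal of sites near centromeres.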

Additional observations from a re-analysis of the deposited data

How the results depend on the processing

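Of 47 values recomputed under other settings, 29 moved by less than their interval or by under 1.5 times for a count. The number of shared sites lay between 629 and 715 under 7 of them, the overlap of 50% of the shorter peak giving 687. Of these values, 629 and 652 followed from taking away the sites near a centromere or in clusters of at least 5 sites. They are counted among the 29 though set by construction. So is the 0% in VCaP ERα + E2 for subsets of the shared sites, which was certain. The number of shared sites was 439 when the wider 50% of each list alone was used, and 345 by construction when the wider 50% of the shared sites was taken. In that wider set the median width was 346 bp, the median midpoint difference 29.5 bp, the share near a centromere 11.9%, near a chromosome end 23.5% and in light bands 66.4%. The share near a centromere was 5.22, 5.51 and 15.4% with limits of 1, 2 and 10 Mb, and near an end 3.33, 8.41 and 30.4%. The clustered share was 10.7% with gaps of 10 kb, 55.2% with gaps of 1 Mb and 16.2% without sites within 5 Mb of a centromere. Without the clusters of at least 5 sites, a setting chosen after seeing the data, the clustered share was 14.7% and that near a centromere 5.67%. The settings for light bands and the centromere joined with its assembly gap (9.28%) were also chosen after seeing the data. Presence in VCaP lay between 0.795 and 2.61%, and presence in VCaP ERα + E2 was 0.145% (1 site) with midpoints within 1000 bp, where unshared VCaP + E2 peaks had 1.75%, and 0% otherwise. Settings for promoters, intergenic sites and oestrogen response elements were listed and not run. No paired analysis was possible because a single library stood for every group. The lists carry no read numbers, so that a site missing from a list may lie under its threshold, and width and sharing cannot be separated from depth.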
